A study of Homo sapiens with 18 samples.

Results

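The 6 libraries described here compared 2 derivatives of U2OS, a human osteosarcoma cell line, after both had spent 24 h in 10 µM cytarabine. One derivative carried the empty MigR1 vector and the other overexpressed a mutant DNMT3A, with 3 libraries of cultured cells for each. They were chosen by their labels as the treated mutant and treated empty vector libraries, 6 of the 18 in the series. All genes entered the comparison, of which 18226 of the 25296 in the count table had enough counts to be tested. The substitution is R882H according to the sample labels and R882C according to the series text, and is referred to below only as the mutant. Both compared groups had received the drug, and neither is an untreated control. Untreated empty vector cells, untreated mutant cells and treated cells overexpressing wild-type DNMT3A, each with 3 libraries, were set beside the comparison. The labels call the cells without cytarabine untreated and the series text speaks of a vehicle control, so whether they received a vehicle is not known. The labels give biological triplicates plated from each line and do not give the number of clones behind a line or the species of the introduced cDNA. The p-values therefore measure differences against the spread between cultures within a group, estimated jointly over all 18 libraries of the series. A difference between lines that arose in culture cannot be told apart from an effect of the introduced protein.

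DNMT3A is a de novo DNA methyltransferase that places methyl groups on cytosine in CG dinucleotides, and arginine 882 in its catalytic domain is a recurrent site of substitution in acute myeloid leukaemia. Cytarabine is a cytidine analogue that cells phosphorylate to a triphosphate. DNA polymerases build it into new strands, which slows or stops replication forks and triggers the S phase checkpoint. Methylation was not measured in these libraries, and all values below are transcript counts.

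Promoter sequences are shown for 2 rises and 2 falls in the mutant line, because CG dinucleotides are the substrate of DNMT3A. Each runs 5′ to 3′ from 250 bases before to 50 bases after the start in the RefSeq table for GRCh38.p14, with every CG dinucleotide in capitals. They are the largest of each direction among called protein-coding genes with an entry in the table, DNMT3A aside. Eligible genes also had a mean of at least 1 log2 CPM and no overlap between the compared groups. Some genes with fewer counts had larger fitted changes. KRT75 (chr12:52434322-52434621, minus strand) and STK31 (chr7:23709969-23710268, plus strand) were higher in the mutant line. CTCFL (chr20:57524648-57524947, minus strand) and MAMDC2 (chr9:70043331-70043630, plus strand) were lower.
KRT75: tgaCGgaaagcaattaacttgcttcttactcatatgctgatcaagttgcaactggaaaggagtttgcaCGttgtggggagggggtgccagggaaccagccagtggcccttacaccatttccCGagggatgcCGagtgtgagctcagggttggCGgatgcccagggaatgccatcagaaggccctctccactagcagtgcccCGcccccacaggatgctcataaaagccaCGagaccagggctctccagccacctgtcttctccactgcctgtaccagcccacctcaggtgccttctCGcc
STK31: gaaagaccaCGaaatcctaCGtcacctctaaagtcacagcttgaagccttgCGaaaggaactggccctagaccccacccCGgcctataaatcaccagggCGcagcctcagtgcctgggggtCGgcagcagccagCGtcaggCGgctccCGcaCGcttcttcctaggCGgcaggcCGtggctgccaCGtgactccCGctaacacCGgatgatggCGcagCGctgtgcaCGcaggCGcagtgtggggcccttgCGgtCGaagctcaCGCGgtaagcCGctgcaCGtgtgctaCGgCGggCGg
CTCFL: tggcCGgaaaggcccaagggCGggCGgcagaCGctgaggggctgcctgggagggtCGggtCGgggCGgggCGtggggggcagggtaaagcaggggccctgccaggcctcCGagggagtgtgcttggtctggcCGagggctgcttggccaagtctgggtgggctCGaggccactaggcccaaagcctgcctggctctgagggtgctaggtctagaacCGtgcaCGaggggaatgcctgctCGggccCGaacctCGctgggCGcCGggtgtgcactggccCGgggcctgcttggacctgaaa
MAMDC2: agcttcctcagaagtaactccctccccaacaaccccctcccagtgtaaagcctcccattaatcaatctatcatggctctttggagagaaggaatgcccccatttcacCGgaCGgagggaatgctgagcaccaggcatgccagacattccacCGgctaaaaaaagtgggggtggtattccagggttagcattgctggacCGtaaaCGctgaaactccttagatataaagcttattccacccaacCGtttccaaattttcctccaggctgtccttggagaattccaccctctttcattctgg
The motif CG, which reads the same on both strands, occurred 8 times in the KRT75 window, 28 times in STK31, 19 times in CTCFL and 6 times in MAMDC2. Of the 27305 windows in the table, 42.1% held no more CG dinucleotides than KRT75, 76.0% no more than STK31, 58.8% no more than CTCFL and 37.5% no more than MAMDC2. So both the higher and the lower pair contained 1 window with few and 1 with more CG dinucleotides. Over the protein-coding genes tested, a window was matched for 80.5%. Its median CG count was 29 in 952 genes called higher in the mutant line, 25 in 976 called lower and 26 in 9597 called neither. These counts describe the sequence and say nothing of its methylation.

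The compared libraries held 15391484 to 21850378 counts and detected 22379 to 23622 genes. Treated empty vector replicate 1 stood somewhat apart, with a correlation of log2 levels across genes of 0.977 and 0.980 with the other 2, which reached 0.989 with each other. Mitochondrial transcripts took 3.79%, 5.18% and 3.87% of counts in the treated empty vector libraries and 3.30%, 3.36% and 3.08% in the treated mutant libraries, without overlap, and their part in the results was not tested. Mesenchymal markers ranged widely in treated empty vector and mutant cells, from VIM at 1100 and 1161 CPM (normalized counts-per-million units) and FN1 at 458 and 429 CPM to COL1A2 at 2.10 and 1.97, PRRX1 at 2.27 and 1.16 and NT5E at 0.52 and 0.69 CPM. TWIST1 had no row in the table, and the osteoblast factor RUNX2 was at 49.8 CPM in each line. The osteoblast markers SP7 and IBSP had no row in the table, and BGLAP was at 0.30 and 0.05 CPM. In bulk libraries fewer cells of a type and less RNA per cell cannot be told apart. Summed levels of the 13 mesenchymal markers were 2328 to 2627 CPM in the empty vector and 2328 to 2596 CPM in the mutant libraries, sums carried by a few abundant genes. The 2 blood markers with enough counts to be tested, PTPRC and ITGAM, summed to at most 2.35 CPM in any compared library. CD14 and HBB were at 0 in the mutant libraries.

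The transcript count of DNMT3A itself checked the labels. It reached 47.1, 49.6 and 45.5 CPM in the treated empty vector libraries and 532, 515 and 525 CPM in the treated mutant libraries. CPM are here normalized between libraries and are not scaled for gene length. The groups did not overlap, and the mutant level was 11.1-fold higher, a log2 fold change of 3.47 with a standard error (SE) of 0.20 (edgeR quasi-likelihood test, Benjamini-Hochberg adjusted p = 1.79e-09). Treated cells with wild-type DNMT3A had 176 ± 8.68 CPM (SD, n = 3), a level between the other 2, and the mutant level was above it by 1.57 on the log2 scale (edgeR adjusted p = 6.6e-06). The counts lie in the annotated gene (chr2:25227855-25342591, minus strand, coordinates of the deposited table) and do not separate introduced from endogenous transcripts. Before treatment the mutant libraries were less even, with 500, 615 and 254 CPM against 26.2 to 27.5 CPM in the untreated empty vector libraries.

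**Figure D1:**
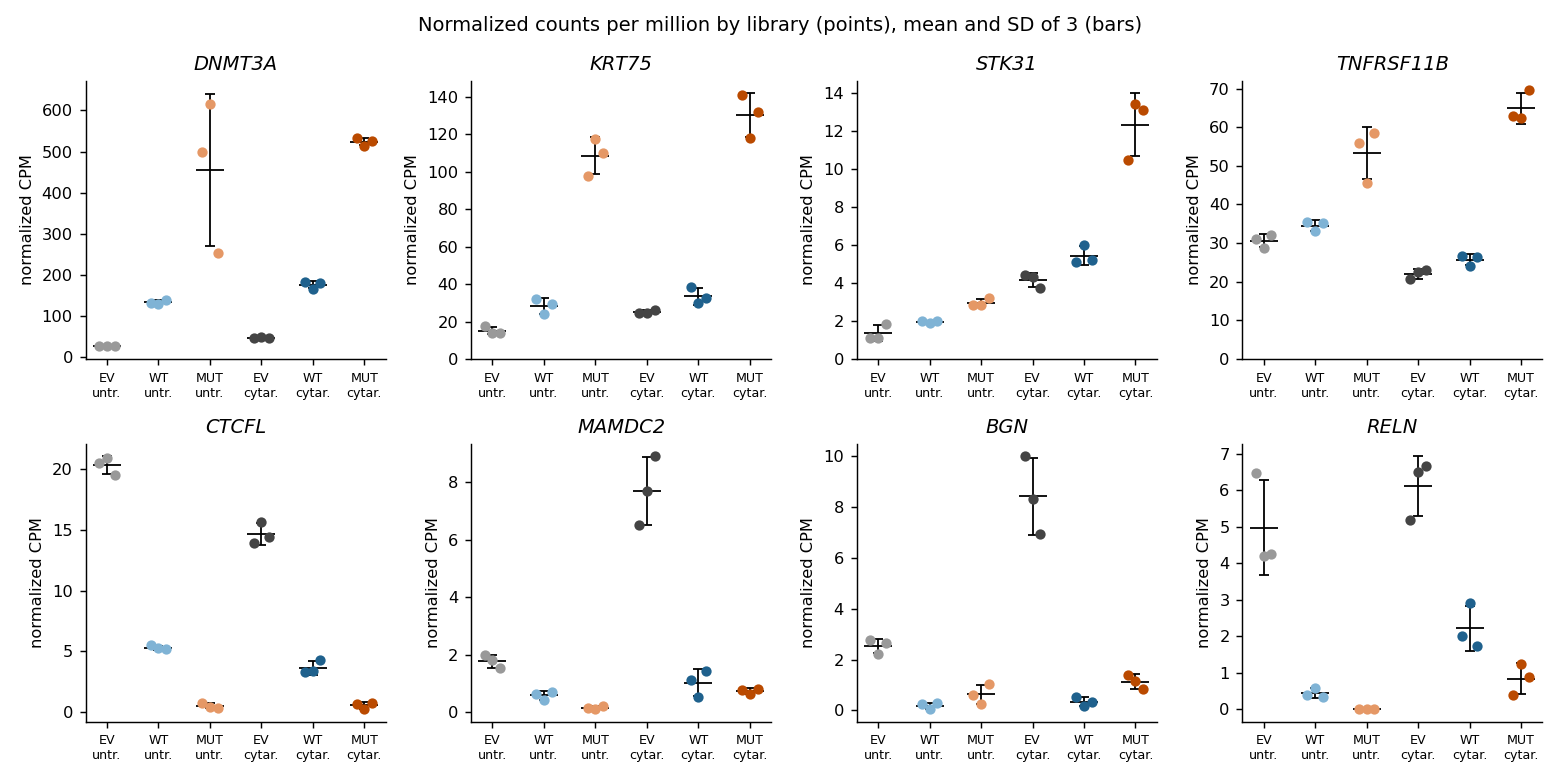
Normalized CPM (vertical axes, linear, starting at or just below 0) of 8 genes in each of the 18 libraries (points), by line and treatment, with the mean (wide bar) and SD of 3 libraries (whiskers). EV is empty vector, WT wild-type DNMT3A and MUT mutant DNMT3A. DNMT3A, KRT75, STK31 and TNFRSF11B are higher in all 3 treated mutant libraries than in the treated empty vector libraries, and CTCFL, MAMDC2, BGN and RELN are lower in all 3.

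Under cytarabine 2548 genes, 14.0% of those tested, differed between the mutant and empty vector lines at an adjusted p under 0.05 in edgeR's quasi-likelihood test. Of these 1249 (6.85% of tested genes) were higher in the mutant line and 1299 (7.13%) were lower. Most differences were small. The median size among called genes was 0.41 on the log2 scale, and 285 passed with a size of at least 1, of which 83 were higher and 202 lower. In 2511 of the called genes the 3 replicates of the groups did not overlap. A call favours such genes, and the share over all tested genes is not given, so this count adds little to the calls. The median over all tested genes was -0.01, a value that the normalization holds near 0. Protein-coding genes were called in 16.6% of 14309 and other biotypes in 4.44% of 3917. Leaving out 1 compared library gave 1539 to 2051 calls, with 1579 without treated empty vector replicate 3, 1609 without treated mutant replicate 2 and 1539 without treated mutant replicate 3. All 6 such fits called 1102 of the 2548 genes. Because the spread is shared over all 18 libraries, libraries outside the comparison also move the count. Without untreated mutant replicate 3 it was 3695.

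**Figure D2:**
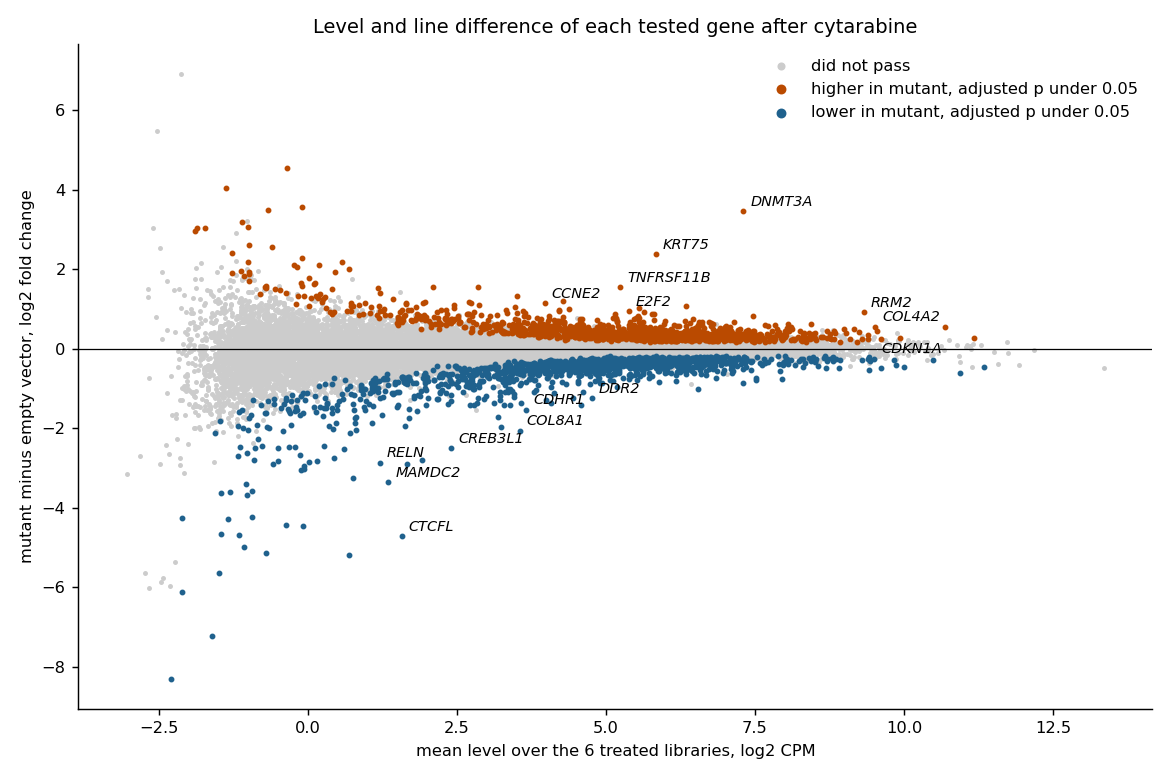
Difference between treated mutant and treated empty vector cells (vertical axis, edgeR log2 fold change) against the mean level over the 6 treated libraries (horizontal axis, log2 CPM), 1 point for each of the 18226 tested genes. The 1249 genes called higher and 1299 called lower are coloured, and DNMT3A and CTCFL lie at 3.47 and -4.71. At low levels fitted values rest on few counts and spread widely.

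The largest rises and falls below were taken only from called genes whose compared groups did not overlap. Among protein-coding genes other than DNMT3A, the 15 largest rises at a mean level of at least 1 log2 CPM ran from 1.14 to 2.38 on the log2 scale. KRT75, a keratin of the hair follicle on chromosome 12, led them. Its level was 24.6, 24.4 and 26.2 CPM in the treated empty vector libraries and 141, 118 and 132 CPM in the mutant libraries. That was 5.19-fold higher, with a wide gap between groups (log2 fold change 2.38, SE 0.12, edgeR adjusted p = 2e-10). Treated wild-type cells had 33.6 ± 4.55 CPM (SD, n = 3), much nearer to the empty vector. TNFRSF11B encodes osteoprotegerin, the secreted decoy receptor that binds RANKL and restrains osteoclast formation. It stood at 20.6, 22.5 and 23.1 CPM against 62.9, 62.4 and 69.5 CPM, a 2.94-fold difference with close replicates (log2 fold change 1.55, SE 0.09, edgeR adjusted p = 1.79e-09). STK31, a protein kinase gene expressed mainly in testis, was at 4.45, 4.31 and 3.76 CPM against 10.5, 13.4 and 13.1 CPM, 2.96-fold higher. FAM20C, the Golgi kinase that phosphorylates secreted matrix proteins, went from 7.12 ± 0.60 to 17.9 ± 0.27 CPM (SD, n = 3 each). SYTL1, a Rab27-binding vesicle transport gene, was at 12.7 ± 2.56 against 29.6 ± 1.83 CPM, while wild-type cells lay below both, 2.29 lower on the log2 scale than the empty vector (edgeR adjusted p = 4.1e-07).

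Several of the remaining rises concern genes best known from other cell types, all at low levels. LCK, a Src family kinase of T cells, was at 1.74 ± 0.87 CPM in treated empty vector and 4.11 ± 0.52 CPM in treated mutant cells (SD, n = 3 each). CD3D, a subunit of the T cell receptor complex, was at 4.32 ± 0.83 and 9.81 ± 1.49 CPM. ITGB2, the beta chain of the leukocyte integrins, was at 4.41 ± 0.82 and 9.93 ± 1.24 CPM. CDH5, the cadherin of endothelial junctions, rose from 2.52 ± 0.25 to 5.55 ± 0.715 CPM. Beside these, PTPRC, the pan-leukocyte marker, was at 1.04 and 0.96 CPM, and the endothelial markers PECAM1 and KDR were under 0.2 CPM in both lines. Of the 4 endothelial markers tested CDH5 and CLDN5 were called higher. The sum of the 4 was at most 9.58 CPM in the empty vector and at least 12.98 CPM in the mutant libraries. In each fit that left out a compared library other than treated mutant replicate 2, 1 of these markers was called. Their part in the results was not tested. LGR5, the R-spondin receptor of intestinal stem cells, had 1.35 ± 0.30 and 3.64 ± 0.26 CPM, and SCARF1, a scavenger receptor, 2.44 ± 0.43 and 7.29 ± 1.17 CPM. The other rises of the 15 were CMPK2, a mitochondrial nucleotide kinase induced by interferon, CCNE2, the small GTPase gene RAB42 and TICAM2, an adaptor of Toll-like receptor signalling. The call of TICAM2 was marginal (edgeR adjusted p = 0.0482) and was lost in 8 of 18 alternatives, with adjusted p up to 0.189. LCK lost its call without treated empty vector replicate 1 or 3 or treated mutant replicate 1.

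The 15 largest falls were larger, from -1.53 to -4.71 on the log2 scale. CTCFL, the germline paralogue of the insulator protein CTCF (chr20:57495966-57525653, minus strand), stood at 13.9, 15.6 and 14.4 CPM in the treated empty vector libraries. The treated mutant libraries held 0.66, 0.24 and 0.74 CPM, 26.1-fold lower and far outside the spread (log2 fold change -4.71, SE 0.23, edgeR adjusted p = 2e-10). MAMDC2, which encodes a secreted proteoglycan, was at 6.50, 7.68 and 8.90 CPM against 0.79, 0.62 and 0.83 CPM, 10.2-fold lower. RELN, the gene of the secreted glycoprotein reelin, was at 5.18, 6.49 and 6.67 CPM against 0.40, 1.25 and 0.87 CPM, 7.31-fold lower. BGN, the small matrix proteoglycan biglycan, was at 9.98, 8.30 and 6.93 CPM against 1.41, 1.15 and 0.83 CPM, 7.41-fold lower. The groups did not overlap in these 4 genes, which the choice of the largest falls required.

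The other 11 falls included genes of several kinds. CREB3L1 encodes a membrane-bound transcription factor that drives type I collagen expression in osteoblasts. It fell from 12.4 ± 0.65 to 2.20 ± 0.58 CPM (SD, n = 3 each; log2 fold change -2.50, SE 0.16, edgeR adjusted p = 6.33e-09). COL8A1, a short-chain network collagen, was at 23.4, 24.2 and 23.65 CPM against 5.93, 5.55 and 5.58 CPM, with replicates that differed little within either group. GALNT15, an enzyme that starts O-linked glycosylation, was at 18.8 ± 1.37 against 4.78 ± 1.44 CPM. The neuronal splicing factor gene RBFOX3 was at 9.87 ± 1.54 against 1.40 ± 0.44 CPM. CDHR1, a cadherin of photoreceptors, was at 21.5 ± 2.84 against 7.45 ± 1.03 CPM, and FBXO2, an F-box protein that recognises glycoproteins, at 16.5 ± 2.88 against 4.99 ± 0.82 CPM. XIRP1 and SYNPO2L, both actin-binding genes of striated muscle, and SSPN, a member of the dystrophin complex, were 3.87-, 2.96- and 3.62-fold lower. The cytokine receptor gene IL21R and the complement receptor gene C3AR1 were 3.36- and 3.18-fold lower. Each of these 15 genes kept its call in every alternative in which it was tested.

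Outside protein-coding genes, the largest rises and falls were smaller. The pseudogene ZNF876P was 2.02-fold higher, and the processed transcripts AC005394.2 and AC090197.1 were 1.92- and 1.87-fold higher. AC090197.1 passed in only 5 of 17 alternatives. ZNF876P lost its call without treated empty vector replicate 1 or treated mutant replicate 3, and AC005394.2 without replicate 3 of either line. LINC01694 held 10.95 ± 0.041 CPM in the treated empty vector and 4.63 ± 0.32 CPM in the treated mutant libraries (SD, n = 3 each), 2.36-fold lower. AC083798.2, annotated as antisense, was 2.39-fold lower, and AC092490.1, a long intergenic RNA, 2.37-fold lower. Strand use in counting is not given in the sources used here, so antisense reads cannot be told apart from those of an overlapping gene.

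Most of the largest differences were also present before treatment. Untreated mutant and empty vector cells, which share no library with the treated comparison, differed in 3632 genes (19.9%). Of the 2548 genes called under cytarabine, 1316 were also called untreated, 1300 of them in the same direction. Those 1300 make up 51.0% of the treated calls and 35.8% of the untreated calls. Among the 15 largest rises 11 were called in the same direction without drug, as were all 15 of the largest falls. CTCFL, for example, stood at 20.3 ± 0.73 and 0.51 ± 0.21 CPM in untreated empty vector and mutant cells, and KRT75 at 15.2 ± 2.11 and 108 ± 9.95 CPM (SD, n = 3 each). The other 1232 treated calls were not called untreated, but a test of the difference between the differences called 39 of all genes, and 5 of these 1232. At an unadjusted p under 0.05 that test passed 2882 genes. The test draws on the untreated mutant libraries, which varied most between replicates. Their fitted coefficient of variation was 0.216, against 0.0398 in untreated empty vector, 0.133 in treated empty vector and 0.0696 in treated mutant libraries. Few calls in this test thus do not show that the differences were alike with and without drug. CCNE2 illustrates the gap between missing a threshold and differing. Its difference was 1.15 (edgeR adjusted p = 1.86e-05) under drug and 0.25 (adjusted p = 0.24) without it, and the test between them gave an adjusted p of 0.06.

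The difference did depend on treatment for DDR2, a receptor tyrosine kinase activated by fibrillar collagen. Treated cells held 36.0, 46.0 and 43.8 CPM with empty vector and 15.9, 19.3 and 17.8 CPM with the mutant, a log2 fold change of -1.25. Untreated cells held 28.3 ± 3.36 and 4.08 ± 0.17 CPM (SD, n = 3 each), a log2 fold change of -2.79, so the gap was wider without drug (edgeR adjusted p of the difference = 0.000553). For TNFRSF11B the gap was wider with drug, 1.55 against 0.80 on the log2 scale (edgeR adjusted p of the difference = 0.017). RELN had no count in any untreated mutant library and 4.98 CPM in untreated empty vector cells. Against a floor of 3 counts over the 3 libraries this is at least 88.5-fold lower, compared with 7.31-fold lower under drug (adjusted p of the difference = 0.017).

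The comparisons with treated wild-type cells share libraries with the main comparison, so they are given side by side only. Treated wild-type and empty vector cells differed in 3013 genes (16.5%) and treated mutant and wild-type cells in 3616 (19.8%). Of the 2548 genes, 1176 were also called between mutant and wild type, counted without regard to direction. BGN, for example, was 2.89 lower on the log2 scale in mutant than in empty vector cells and 1.70 higher than in wild-type cells. Among the 15 largest falls, 12 were also called lower in wild-type than in empty vector cells. MAMDC2 was at 1.03 ± 0.46 CPM with wild-type DNMT3A, close to the mutant value of 0.75 ± 0.11 CPM, and the difference between them was not called (log2 fold change -0.48, edgeR adjusted p = 0.32). CTCFL lay between, at 3.65 ± 0.57 CPM, and BGN was lowest in wild-type cells, at 0.34 ± 0.17 CPM. C3AR1, IL21R and XIRP1 were the 3 that were not called. For the first 2 the wild-type levels were 3.97 ± 0.21 and 4.52 ± 0.19 CPM against 4.04 ± 0.88 and 5.78 ± 0.52 CPM in the empty vector. Among the 15 largest rises, 4 were called higher in wild-type cells too, namely KRT75, FAM20C, ITGB2 and CCNE2, and 3 were called lower, namely SCARF1, SYTL1 and CDH5.

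**Figure D3:**
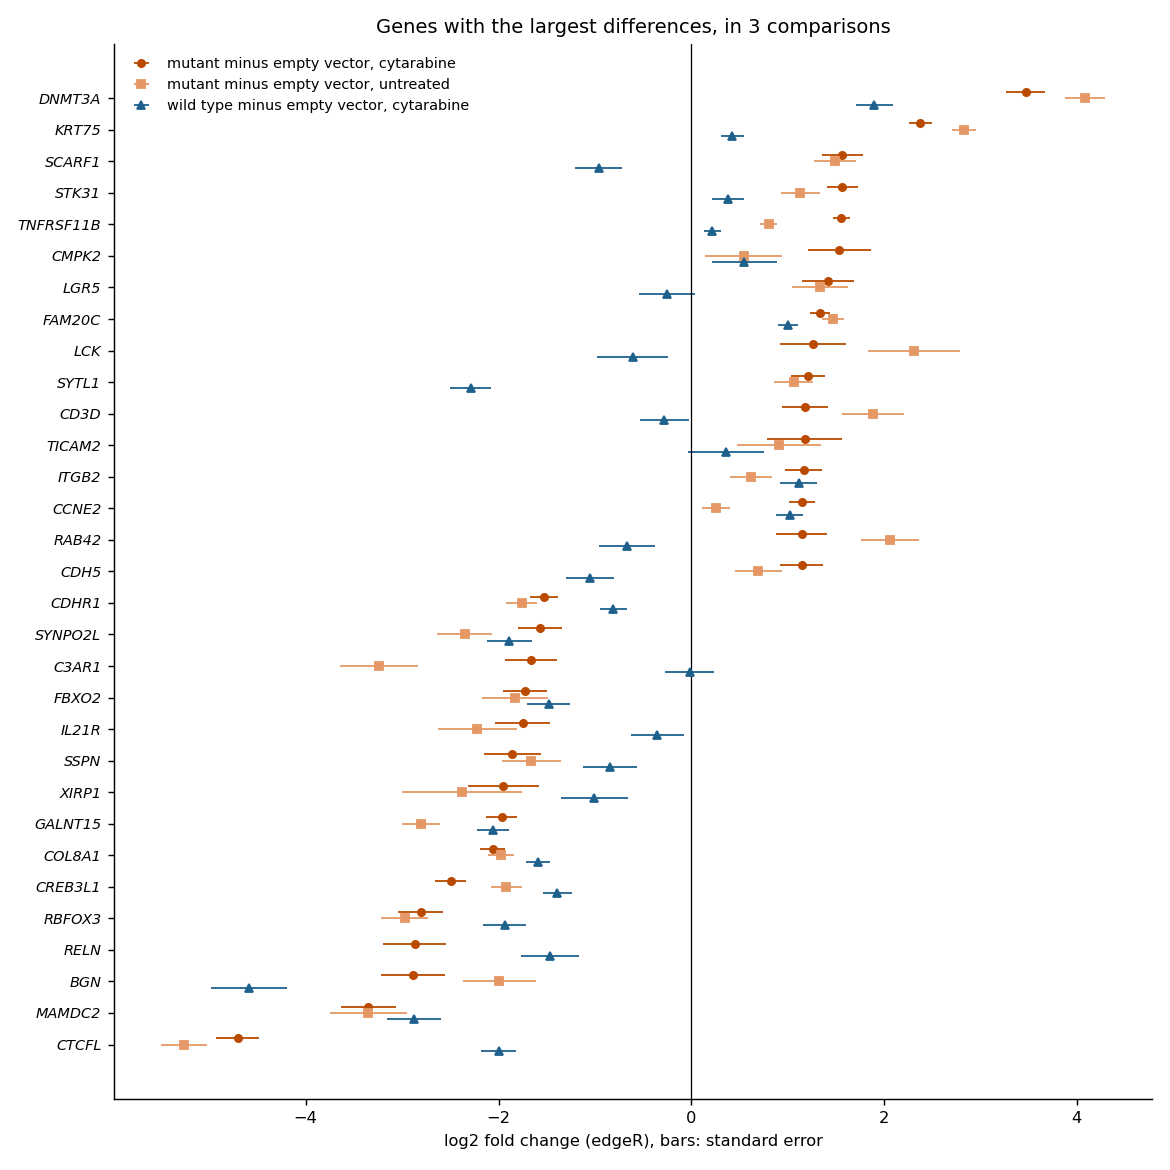
Log2 fold changes from edgeR (horizontal axis, bars are standard errors) of DNMT3A, the 15 largest rises and the 15 largest falls, in mutant minus empty vector under cytarabine (circles), the same untreated (squares) and wild type minus empty vector under cytarabine (triangles). The circles and triangles share the treated empty vector libraries, and the untreated value of RELN is left out because 1 group had no counts. Circles and squares lie on the same side of 0 for every gene shown with both, from CTCFL at -4.71 to DNMT3A at 3.47.

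Genes of the DNA methylation machinery other than DNMT3A came out higher or unresolved. Of 19 tested writers, erasers and readers 6 were called higher and none lower, 31.6% against 6.85% of all tested genes called higher, and the median was 0.10 against -0.01 over all tested genes. TET3, a dioxygenase that oxidises 5-methylcytosine, went from 72.5, 86.3 and 75.2 CPM to 120, 122 and 116 CPM (log2 fold change 0.62, SE 0.15, edgeR adjusted p = 0.0085). UHRF1, which brings the maintenance enzyme to hemimethylated DNA, was 0.42 higher on the log2 scale, the reader MBD3 0.39 and the chromatin remodeller HELLS 0.37. DNMT3B, the other de novo methyltransferase, was at 46.8, 45.1 and 44.2 CPM against 55.0, 54.2 and 58.5 CPM, 0.30 higher. DNMT1, the maintenance methyltransferase, differed by 0.20 (edgeR adjusted p = 0.086) and TET2 by -0.01 (adjusted p = 0.99).

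Replication genes showed the highest share of calls of any list. Of 45 tested replication and E2F target genes 25 were called higher in the mutant line, 55.6% against 6.85% of all tested genes, and none was called lower. Their median log2 fold change was 0.24, and without drug it was 0.12, with 14 called higher and 1 lower. CCNE2, the S phase cyclin E2, stood at 10.5, 9.93 and 11.1 CPM in the empty vector and 21.2, 25.8 and 22.9 CPM in the mutant libraries. RRM2, the regulated subunit of ribonucleotide reductase, stood at 444, 474 and 480 CPM against 865, 901 and 885 CPM, close to a doubling (log2 fold change 0.92, SE 0.06, edgeR adjusted p = 2.1e-08). E2F2, an activator of S phase genes, was at 27.1, 30.3 and 32.9 CPM against 58.2, 57.9 and 57.9 CPM. In all 3 genes the groups were well apart. Genes that were not called included the clamp PCNA (0.25, edgeR adjusted p = 0.16), the licensing factor CDC6 (0.11, adjusted p = 0.25) and RRM1 (0.08, adjusted p = 0.49). Leaving out 1 compared library gave 16 to 21 called higher, the fewest without treated empty vector replicate 1.

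Genes of G2 and mitosis did not share this direction. Among 43 tested, 2 were called higher and 4 lower, 14.0% in all, the share of all tested genes, and the median was -0.03. CKS2, a subunit of cyclin-dependent kinases, was at 192, 142 and 158 CPM against 116, 97.7 and 134 CPM, 0.50 lower on the log2 scale. The centrosomal kinase gene NEK2 was 0.37 lower and the spindle genes NUSAP1 and ASPM 0.34 higher and 0.32 lower. CCNB1, the mitotic cyclin B1, was at 190 ± 18.9 and 192 ± 7.50 CPM (SD, n = 3 each). The 4 lower calls became 2 without treated empty vector replicate 2 or 3 or treated mutant replicate 1 or 2, and 1 was called higher without treated empty vector replicate 3 or treated mutant replicate 1.

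The p53 target list leaned the other way. Of 33 tested p53 targets 8 were called lower and 1, SESN2, higher, against 7.13% and 6.85% of all genes, with a median of -0.05. XPC, which recognises damaged DNA in nucleotide excision repair, was 0.38 lower on the log2 scale, TIGAR, a regulator of glycolysis, 0.37 lower, SERTAD1 0.36 lower and the receptor gene EDA2R 0.32 lower. CDKN1A, the inhibitor p21, was at 798, 768 and 801 CPM in the empty vector and 660, 666 and 663 CPM in the mutant libraries, a small difference with little spread (log2 fold change -0.25, SE 0.06, edgeR adjusted p = 0.0082). For CDKN1A treated wild-type cells had 1036 ± 24.3 CPM (SD, n = 3), above both. MDM2, the ubiquitin ligase of p53, was not called (-0.05, edgeR adjusted p = 0.84). In untreated cells 14 of these genes were called lower in the mutant line and none higher. The count of 8 was 4 without treated empty vector replicate 3 or treated mutant replicate 3, and 5 without treated mutant replicate 1. SESN2 was not called without treated empty vector replicate 1 or 3 or treated mutant replicate 3.

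Genes that guard or repair stalled forks were called in 5 of 42, all higher, with a median of 0.07. That is 11.9%, against 6.85% of all genes called higher and 14.0% called in either direction. Without drug the median of this list was -0.06, with 4 called higher and 5 lower. BRCA2, which acts in repair by homologous recombination, was at 28.0, 39.0 and 35.6 CPM against 49.2, 53.5 and 52.5 CPM, 0.60 higher on the log2 scale. BARD1, the partner of BRCA1, and RAD9A, part of the checkpoint clamp, were 0.42 and 0.34 higher. The checkpoint kinases were not called, ATR at -0.06 (edgeR adjusted p = 0.80) and CHEK1 at 0.10 (adjusted p = 0.36). Without treated empty vector replicate 2 the count was 3.

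Of 17 tested genes of cytarabine uptake and metabolism 1 was called, 5.88% against 14.0% of all genes called in either direction and 6.85% called higher. This was the exporter ABCC4, at 21.9, 26.0 and 24.6 CPM against 33.7, 33.7 and 33.5 CPM (log2 fold change 0.48, SE 0.09, edgeR adjusted p = 0.0014). The transporter SLC29A1 differed by 0.05 (SE 0.07, edgeR adjusted p = 0.70) and the kinase DCK, which adds the first phosphate to the drug, by 0.12 (SE 0.10, adjusted p = 0.50). The deaminase CDA differed by -0.31 (SE 0.15, edgeR adjusted p = 0.18) and SAMHD1, which hydrolyses the triphosphate, by 0.10 (SE 0.07, adjusted p = 0.41). A difference of that size for CDA was thus not detectable with this spread.

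Among 18 tested BCL2 family genes 5 were called higher and none lower, 27.8% against 6.85% of all genes called higher, with a median of 0.16. BCL2, the founding anti-apoptotic member, was at 14.0, 15.1 and 14.5 CPM against 26.1, 25.7 and 24.7 CPM, without overlap (log2 fold change 0.81, SE 0.10, edgeR adjusted p = 2.3e-05). The pro-apoptotic genes BCL2L11, BID and BAD were 0.36, 0.34 and 0.31 higher, so the members called included both kinds. The p53-responsive BBC3 and BAX were not called (0.05 and 0.06). Leaving out any 1 compared library lowered the count of 5 to between 1 and 3. The integrated stress response list held 6 genes called higher and none lower of 22, 27.3% against the same 6.85%, with a median of 0.15. CHAC1 and SLC7A11, which act on glutathione and its cystine supply, were 0.50 and 0.43 higher, GDF15, a stress-induced hormone, 0.37 and ASNS, the asparagine synthetase, 0.31. Only 1 of these was called without treated empty vector replicate 1 or treated mutant replicate 2, and 2 without treated empty vector replicate 3 or treated mutant replicate 3. Without drug the stress response list had a median of -0.03, with 3 called higher and 4 lower. GDF15 was then 0.49 lower in the mutant line (edgeR adjusted p = 0.0176), and its call under drug was marginal (adjusted p = 0.0496). The test of the difference between the 2 gave an adjusted p of 0.055.

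**Figure D4:**
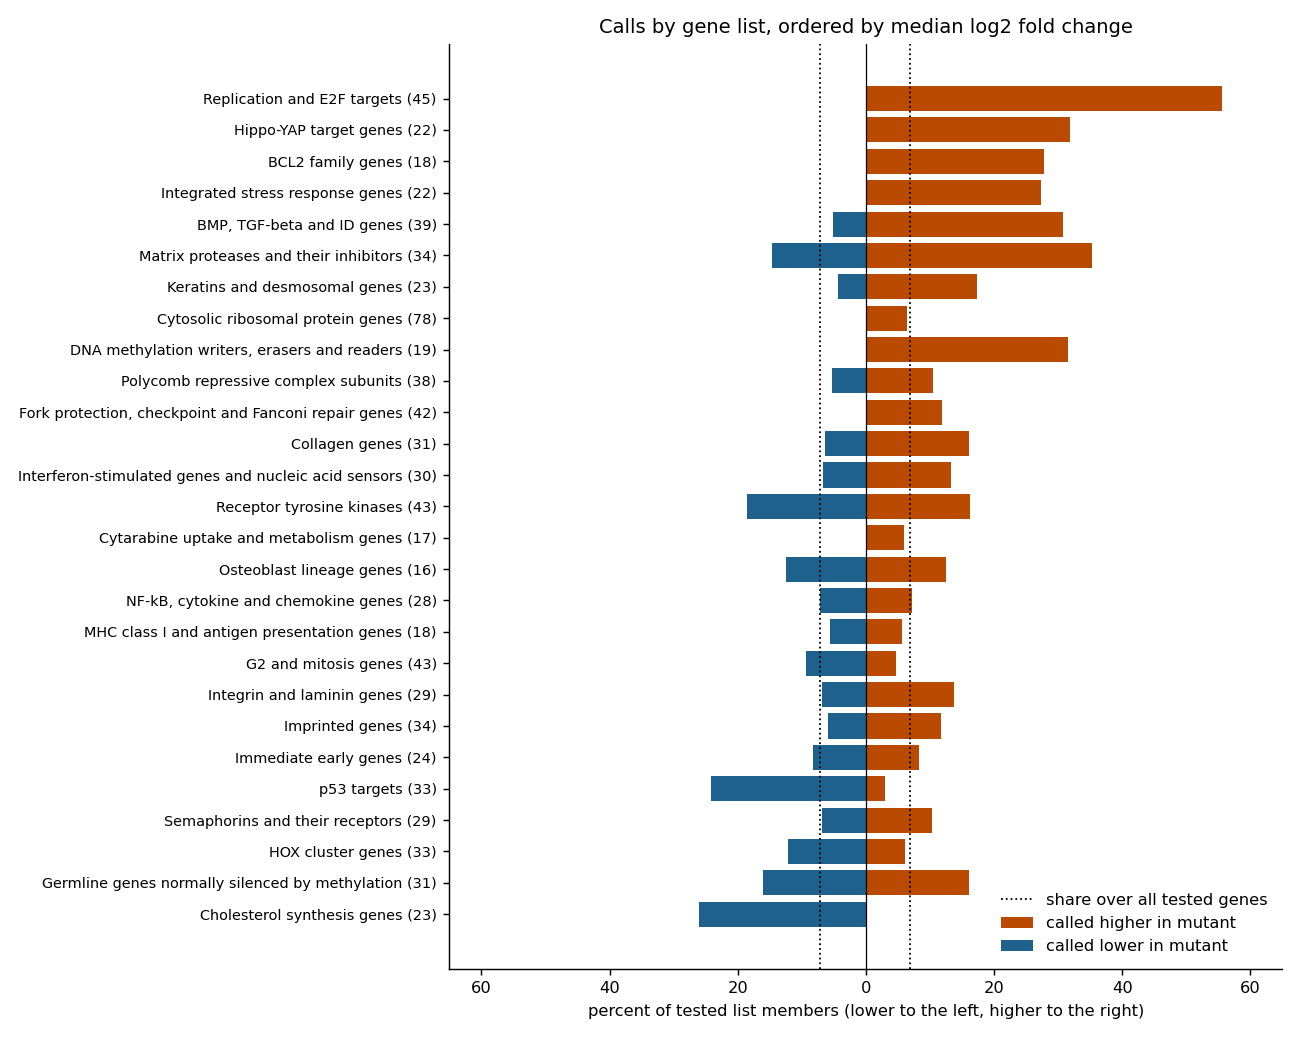
Percent of tested members of each of 27 gene lists called higher (right) or lower (left) in treated mutant than in treated empty vector cells, with the number tested in parentheses and lists ordered by their median log2 fold change. Dotted lines mark the shares over all tested genes, 6.85% and 7.13%. Replication and E2F targets reach 55.6% called higher, and cholesterol synthesis genes have only members called lower.

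Genes of the extracellular matrix and its turnover differed in both directions. Of 34 tested matrix proteases and inhibitors 12 were called higher and 5 lower, against 6.85% and 7.13% of all genes. MMP9, a gelatinase, was at 7.58, 6.62 and 8.77 CPM against 19.3, 13.3 and 15.7 CPM (log2 fold change 1.06, SE 0.16, edgeR adjusted p = 0.00019). The aggrecan-cleaving proteases ADAMTS1 and ADAMTS5 were 0.97 and 0.93 higher on the log2 scale, and ADAMTS14, which trims procollagen, went from 0.83, 0.75 and 0.77 CPM to 0.09, 0.19 and 0.13 CPM. MMP14, the membrane protease that degrades fibrillar collagen, was at 159, 160 and 178 CPM against 252, 248 and 260 CPM, well above the spread. The 12 higher calls became 6 without treated empty vector replicate 1 or treated mutant replicate 1 and 7 without treated mutant replicate 3. The 5 lower calls became 2 without treated empty vector replicate 3 and 3 without treated mutant replicate 1 or 2.

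Of 31 tested collagen genes 5 were called higher and 2 lower, 22.6% in all. Integrin and laminin genes reached 20.7% and osteoblast lineage genes 25%, against 14.0% of all genes. COL4A1 and COL4A2, which form the main basement membrane collagen and are divergent genes on chromosome 13 with annotated spans that overlap at their starts, were 0.63 and 0.56 higher on the log2 scale, with COL4A1 at 198, 212 and 234 CPM against 327, 322 and 347 CPM. COL3A1 was 0.55 higher, and COL1A1, the main collagen of bone, was not called (0.17, edgeR adjusted p = 0.28). Integrin and laminin genes had 4 called higher and 2 lower of 29. ITGB3, the partner of the alpha v integrin, was 0.86 higher and ITGB4, a hemidesmosome subunit, 0.52 higher, while ITGB1 was 0.24 lower. Osteoblast lineage genes had 2 called higher and 2 lower of 16. Besides TNFRSF11B and BGN, the alkaline phosphatase ALPL was at 11.8, 12.5 and 13.7 CPM against 7.34, 7.71 and 7.97 CPM, 0.73 lower, and the matrix protein gene SPARC was 0.28 higher. Collagen genes called higher numbered 3 without treated empty vector replicate 1 or 3 or treated mutant replicate 3. The 2 lower calls among integrins and laminins, ITGB1 and LAMC3, were both lost without treated empty vector replicate 3 or treated mutant replicate 2 or 3, and 1 was lost without treated mutant replicate 1. Only 1 osteoblast gene was called higher in any fit without treated empty vector replicate 2 or 3 or 1 of the treated mutant libraries.

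Signalling genes of the BMP and TGF-beta families were called higher in 12 of 39 and lower in 2, 35.9% in all against 14.0% of all genes, with a median of 0.13. ATOH8, a BMP-responsive transcription factor, was at 4.16, 4.31 and 5.64 CPM against 9.23, 7.33 and 9.54 CPM (log2 fold change 0.88, SE 0.20, edgeR adjusted p = 0.0051), and wild-type cells had 1.60 CPM. The ligand BMP6 was 0.52 higher on the log2 scale and the co-receptor TGFBR3 0.49 higher, while the ligand TGFB3 was 0.81 lower. The inhibitors of differentiation ID4 and ID3, both BMP targets, were each 0.49 higher. Leaving out 1 compared library gave 9 to 11 called higher, and 1 lower without replicate 2 or 3 of either line. Hippo-YAP target genes were called higher in 7 of 22 and lower in none, 31.8% against 6.85% of all genes called higher, with a median of 0.20. RBMS3 was at 22.1, 31.0 and 26.4 CPM against 47.1, 45.9 and 43.8 CPM, and LATS2, a kinase that restrains YAP, and CRIM1 were 0.56 and 0.44 higher. The best known targets CTGF and CYR61 were not called (0.02, edgeR adjusted p = 0.93, and 0.29, adjusted p = 0.15). The count of 7 was 4 without treated empty vector replicate 1 or treated mutant replicate 1 or 3.

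Receptor tyrosine kinases were called in 15 of 43, 7 higher and 8 lower, 34.9% against 14.0%, and their median of 0.05 was near 0. Besides DDR2, the vascular receptor TIE1 went from 0.15, 0.31 and 0.13 CPM to 0.62, 0.72 and 0.74 CPM, and the ephrin receptor EPHA8 and RET were 1.11 and 0.76 lower on the log2 scale. Leaving out any 1 compared library left 2 to 4 called lower, and without treated mutant replicate 1 4 were called higher. Semaphorins and their receptors had 3 called higher and 2 lower of 29, 17.2% and so near the 14.0% of all genes, with SEMA3C 0.50 higher and SEMA4G 0.53 lower. Keratin and desmosomal genes had 4 higher and 1 lower of 23, 21.7% in all. Apart from KRT75, the desmosomal genes EVPL, from 0.10, 0.25 and 0.13 to 1.58, 0.67 and 0.65 CPM, and DSC2, 0.74 higher, were also higher, and DSP, desmoplakin, was 0.87 lower. Leaving out 1 library changed the lower calls in this list to between 0 (without treated mutant replicate 3) and 3 (without treated empty vector replicate 1), with 2 without treated empty vector replicate 2. Semaphorins had 1 called higher without treated mutant replicate 1 and 1 lower without treated empty vector replicate 3 or treated mutant replicate 2 or 3. The epithelial marker CDH1 was also lower, at 5.01 ± 0.16 against 2.21 ± 0.28 CPM (SD, n = 3 each; edgeR adjusted p = 0.00521), as was the mesenchymal marker ENG, at 30.1 ± 1.99 against 19.1 ± 2.36 CPM. CDH1 was the only 1 of 5 tested epithelial markers called, and these markers did not share a direction. EPCAM was at 3.64 and 3.81 CPM, CLDN4 at 19.9 and 20.2 CPM and MUC1 at 3.32 and 1.97 CPM. KRT19, with too few counts to be tested, was at 0.08 and 0.77 CPM. Of 13 tested mesenchymal markers 2 were called, both lower, 15.4% against 14.0% of all genes.

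Germline, HOX and imprinted genes and Polycomb subunits were called in 32.3%, 18.2%, 17.6% and 15.8%, against 14.0% of all genes, so that all but the germline genes lay near the background. Of 31 tested germline genes 5 were called higher and 5 lower, with a median of -0.13. CTCFL and DPPA2, a gene of pluripotent and germ cells, were lower, the latter at 2.20, 1.37 and 2.48 CPM against 0.88, 0.34 and 0.65 CPM. STK31 was higher, and GAGE1, a cancer-testis antigen, was called higher from at most 0.10 CPM in the empty vector to 0.24 to 0.66 CPM in the mutant libraries. HOX genes had 2 called higher and 4 lower of 33, with a median of -0.10 that became 0.02 without treated empty vector replicate 3. HOXD11 and HOXD10, neighbours that pattern the distal limb, stood at 3.81, 3.68 and 3.68 CPM against 1.32, 0.38 and 0.22 CPM, and at 2.49, 3.37 and 3.63 CPM against 0.79, 0 and 0.52 CPM. HOXD9, next to them, was 0.50 higher on the log2 scale (edgeR adjusted p = 0.016), so the calls in this cluster went both ways. The annotated spans of HOXD10 and HOXD11 overlap, so their reads may not be separable. Imprinted genes were called in 6 of 34, 4 higher and 2 lower. Among these TP73 and RB1 were 0.75 and 0.57 higher, and the imprinted pair H19 and IGF2 was not called (-0.42, edgeR adjusted p = 0.13, and -0.32, adjusted p = 0.20). Polycomb subunits were called in 6 of 38, with CBX2 0.46 higher and RNF2, a ubiquitin ligase of the complex, 0.33 lower. These small counts moved with single libraries. Germline genes had 3 called lower without treated empty vector replicate 3 or treated mutant replicate 1 or 2, and 3 higher without treated mutant replicate 3. HOX genes had 2 called lower without treated empty vector replicate 3, and at most 1 higher in every fit that left out a compared library other than treated mutant replicate 2. Imprinted genes had 2 called higher without treated empty vector replicate 1 or any 1 treated mutant library, and none lower without treated empty vector replicate 3. Polycomb genes had none called lower without treated empty vector replicate 3 and 1 without treated empty vector replicate 2 or treated mutant replicate 2 or 3.

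Interferon-stimulated genes and nucleic acid sensors had 4 called higher and 2 lower of 30. That is 20% in all, and the other immune and early response lists below lay between 11.1% and 16.7%, against 14.0% of all tested genes. HERC5 went from 1.81, 1.44 and 1.67 CPM to 0.04, 0.24 and 0.39 CPM, whereas CMPK2 went from 1.27, 1.12 and 1.37 CPM to 3.34, 3.78 and 3.88 CPM. The double-stranded RNA sensor IFIH1 was 0.43 higher on the log2 scale and its relative DDX58 0.39 lower, and ISG15, a standard interferon marker, was not called (0.19, edgeR adjusted p = 0.53). NF-kB, cytokine and chemokine genes had 2 called each way of 28. TNF was barely present, at 0.05, 0.06 and 0.26 CPM against 0.75, 0.67 and 0.74 CPM, and the chemokine gene CCL2 was at 14.2, 11.6 and 16.6 CPM against 5.18, 7.42 and 5.97 CPM (log2 fold change -1.20, SE 0.21, edgeR adjusted p = 0.00071). ICAM1 was 0.90 lower and IL24 0.50 higher. Antigen presentation genes had 2 called of 18, among them ERAP1, which trims peptides, 0.59 higher. Immediate early genes had 2 called each way of 24, EGR2 (-1.19) and DUSP1 (-0.36) lower and KLF2 (0.65) and FOSL2 (0.51) higher. With 1 compared library left out, at most 1 immediate early gene was called lower, and none without treated empty vector replicate 3. Interferon-stimulated genes had 1 called lower in each such fit except that without treated empty vector replicate 1. NF-kB genes had 1 called higher without treated empty vector replicate 1 or 2.

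Cholesterol synthesis genes were called lower in 6 of 23 and higher in none, 26.1% against 7.13% of all genes called lower. Their median was -0.15, and 0.01 without drug. INSIG1, a sterol-regulated brake on the pathway, was at 19.4, 21.7 and 24.2 CPM against 14.3, 14.8 and 16.5 CPM (log2 fold change -0.52, SE 0.09, edgeR adjusted p = 0.00093). The pathway enzymes NSDHL, MVD and MSMO1 were 0.34, 0.30 and 0.27 lower on the log2 scale. The count was 2 without treated mutant replicate 1 or 3 and 3 without treated empty vector replicate 3 or treated mutant replicate 2. Cytosolic ribosomal protein genes had 5 of 78 called higher, 6.41% and so near the background of 6.85%, and a median of 0.10. RPS15, RPS23 and RPL36 were 0.49, 0.45 and 0.31 higher. Without drug the same genes had a median of 0.42 with 54 called higher. Under cytarabine the count was 1 without treated empty vector replicate 2 or 3 or treated mutant replicate 1, 2 without either other mutant replicate and 8 without treated empty vector replicate 1.

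Calls were unevenly spread over the chromosomes, against 6.85% of all tested genes called higher and 7.13% called lower. On chromosome 13, 27.5% of 316 tested genes were called higher and 1.27% lower, with a median of 0.24. Chromosome 2 had 16.7% higher and 1.80% lower, and chromosomes 5, 21 and 19 had 12.9%, 11.6% and 10.2% higher. Chromosomes 9 and 16 lay on the other side, with 18.7% and 17.0% called lower and medians of -0.13 and -0.10. Untreated cells had medians of 0.18 on chromosome 13, 0.15 on chromosome 2, -0.14 on chromosome 9 and -0.12 on chromosome 16. Some list members described above as higher lie on such chromosomes, as ABCC4 and BRCA2 on 13, TET3 on 2 and UHRF1 and MBD3 on 19. Others do not, as E2F2 on chromosome 1 and CCNE2 on chromosome 8. How far chromosome position enters the list results was not tested. With 1 compared library left out the calls on chromosome 13 fell from 87 to as few as 55, without treated empty vector replicate 1 or treated mutant replicate 3, while the chromosome's median lay between 0.24 and 0.26 in these fits. The 204 higher calls on chromosome 2 became 135 and 134 without the same libraries, and the 134 lower calls on chromosome 9 became 84 without treated empty vector replicate 3, 89 without treated mutant replicate 1 and 86 without treated mutant replicate 2. On chromosome 5 the 106 higher calls became 63 to 68 without treated empty vector replicate 1 or 3 or treated mutant replicate 2 or 3. On chromosome 19 the 130 became 73 to 83 without treated empty vector replicate 3 or treated mutant replicate 1 or 3.

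Windows of 5 Mb with at least 20 tested genes, 346 in all, showed where the calls clustered. Their shares stand against 6.85% of all tested genes called higher and 7.13% called lower. The coordinates are those of the deposited table, whose build is hg38 per the submitters' processing notes. The largest share called lower was in chr16:75000001-80000000, where 15 of 24 genes (62.5%) were called lower, none higher, and all 24 had a value below 0. MAF, a leucine zipper transcription factor there, was at 33.5 ± 0.89 against 14.2 ± 1.47 CPM (SD, n = 3 each; edgeR adjusted p = 2.1e-06), and VAT1L and TMEM231 were 1.40 and 1.36 lower on the log2 scale. The next windows of the same arm, chr16:70000001-75000000 and chr16:80000001-85000000, had 27 of 47 and 18 of 36 genes called lower and none higher. They include CALB2, the calcium-binding protein calretinin, 1.36 lower, GLG1, a Golgi glycoprotein gene at 240 ± 13.1 against 140 ± 4.60 CPM, and CENPN, a centromere protein gene, 0.68 lower. Medians of these 3 windows were -0.58, -0.55 and -0.49 under drug and -0.65, -0.59 and -0.37 untreated. In wild-type minus empty vector under drug, which shares the empty vector libraries, they were -0.27, -0.27 and -0.14.

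Chromosome 12 held a second cluster of lower genes, 18 of 31 in chr12:25000001-30000000, with a median of -0.42 under drug and -0.47 untreated. SSPN and BHLHE41, a circadian repressor, were 1.86 and 1.07 lower there. Their annotated spans overlap, so their reads may not be separable. On chromosome 7, chr7:130000001-135000000 had 16 of 30 called lower and a median of -0.44, and 10 without treated empty vector replicate 3. Its median was -0.32 untreated. Under drug it was -0.31 in wild-type minus empty vector and -0.08 in mutant minus wild type. The largest shares called higher were lower than these shares called lower. Over all tested genes 6.85% were called higher. In chr13:110000001-115000000, which holds COL4A1 and COL4A2, 15 of 41 (36.6%) were called higher with a median of 0.31, and 8 without treated mutant replicate 3. RB1, the retinoblastoma tumour suppressor, was at 52.3, 65.9 and 63.4 CPM against 89.1, 89.1 and 91.4 CPM, in a window (chr13:45000001-50000000) where 12 of 35 were called higher. In chr2:20000001-25000000 10 of 30 were called higher, among them RHOB, a small GTPase gene at 173 ± 9.30 against 259 ± 7.84 CPM. The remaining windows of the 5 highest shares were chr5:75000001-80000000, with 12 of 33, and chr13:25000001-30000000, with 9 of 28. Without treated empty vector replicate 1 these 2 windows had 3 and 2 called higher. The first had 3 without treated empty vector replicate 3, 5 without treated mutant replicate 1 or 3 and 6 without treated mutant replicate 2. The second had 5 without treated mutant replicate 1 or 2 and 4 without treated mutant replicate 3. In the chromosome 2 window the count was 6 without replicate 1 of either line and 5 without treated mutant replicate 3.

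**Figure D5:**
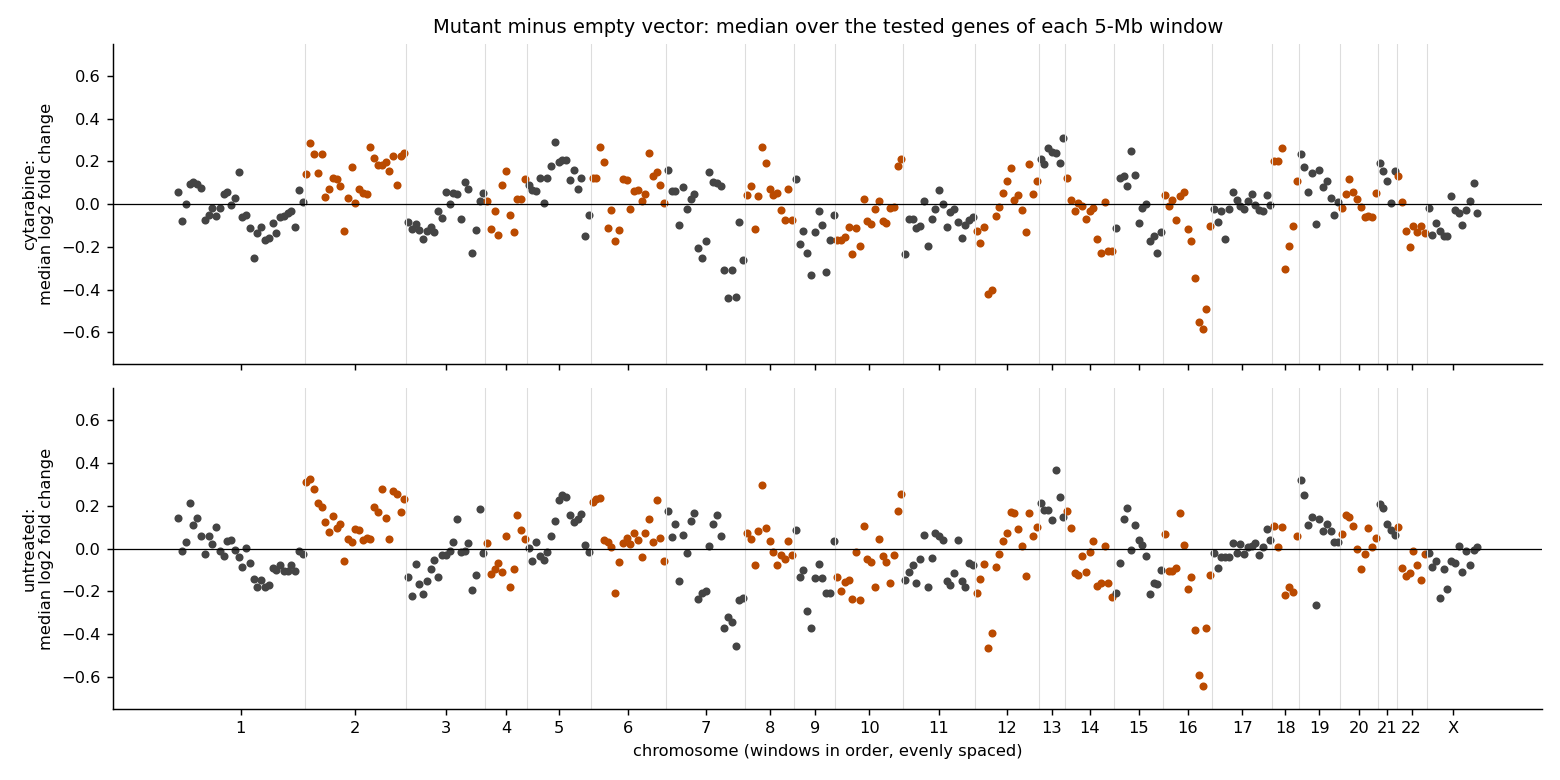
Median log2 fold change of mutant minus empty vector cells over the tested genes of each of 346 windows of 5 Mb (vertical axes), under cytarabine (top) and untreated (bottom), with windows in chromosome order and evenly spaced (horizontal axis). Colours alternate between chromosomes. The lowest points, on chromosome 16, reach -0.58 and -0.65, and the highest point under cytarabine, on chromosome 13, reaches 0.31.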

How the data were processed

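RNA was extracted with a Direct-zol kit and libraries were made with the NEBNext Ultra RNA kit, per the labels' protocols. The submitters' processing notes name CASAVA, STAR 2.6.1d and hg38 without their roles, and the counting tool, annotation and use of strand are not given in the sources used here. The authors deposited expected counts per gene and library, of which 70.4% of values were whole, and these were rounded to whole numbers. A second, normalized table was not used. Among the symbols 26 read as dates, and 4 rows share a symbol.

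edgeR 4.0.16 (with limma 3.58.1, in R 4.3.3) was fitted to all 18 libraries with 1 coefficient for each of 6 groups, TMM factors and edgeR's default expression filter, and tested by quasi-likelihood with Benjamini-Hochberg adjustment over 18226 genes at 0.05. Scripts were tested on simulated data. Named genes were the 15 protein-coding genes with the largest rise and fall among calls at a mean of at least 1 log2 CPM, and the top 3 of other biotypes each way. From each gene list up to 4 called members with the largest change were named, beside members with a set role. Some members that met this rule are not reported here. The gene lists and the comparison were chosen with earlier results of these data known. Alternatives were DESeq2 1.42.0, other scaling factors and filters, fewer libraries, a replicate block and leaving out single libraries.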

Additional observations from a re-analysis of the deposited data

Results flagged for a closer look

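For 7 genes among the lists and named genes, the difference between mutant and empty vector cells under cytarabine differed from the same difference in untreated cells, by edgeR's interaction test with adjustment over all 18226 genes. The values below are the treated minus the untreated log2 fold change. DDR2 had a value of 1.55 (SE 0.17, adjusted p = 0.000553), with the mutant 1.25 lower under drug and 2.79 lower without it. CCNB1, the mitotic cyclin, had -0.53 (adjusted p = 0.0246), with 190 against 192 CPM under drug and 244 against 355 CPM untreated. MMP13, a collagenase, had 1.69 (adjusted p = 0.0384), with 4.74 against 4.92 CPM under drug and 3.67 against 1.17 CPM untreated. NRP1, a co-receptor of semaphorins and VEGF, had 0.75 (adjusted p = 0.0166), and PKP2, a desmosomal plakophilin, 0.57 (adjusted p = 0.017). Neither gene was called under drug, where they were at -0.22 and -0.17, and both were lower in untreated mutant cells, at -0.97 and -0.74. TNFRSF11B had 0.75 (adjusted p = 0.017). RELN had a fitted value of 6.72 (adjusted p = 0.017), which depends on the prior count because the untreated mutant libraries held no counts.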

How the results depend on the processing

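Neither DNMT3A nor any of the largest rises and falls changed sign under any alternative run. Without a filter the balance of calls turned, with 1132 higher and 1070 lower. It also turned with the 6 compared libraries alone (1340 higher and 1275 lower) and the 9 treated libraries (1814 and 1788). The same held without treated empty vector replicate 2 (1075 and 976) or 3 (792 and 787) or treated mutant replicate 2 (821 and 788). Without treated empty vector replicate 1 the median of all genes was 0.0036. Medians of several lists crossed 0 over the alternatives. They ranged from -0.16 to 0.02 for HOX genes, -0.14 to 0.14 for keratin and desmosomal genes, -0.02 to 0.10 for collagens, -0.06 to 0.06 for NF-kB genes, -0.10 to 0.03 for immediate early genes and -0.80 to 0.03 for epithelial markers. Smaller crossings occurred for interferon-stimulated, antigen presentation, integrin and laminin, osteoblast, imprinted and semaphorin genes and for blood markers. DESeq2 called 2846 genes, upper-quartile factors 2591, DESeq2 size factors 2498, no filter 2202, a mean of at least 50 counts 2547, the 6 compared libraries alone 2615 and the 9 treated libraries 3602. Upper-quartile factors changed the split to 1092 higher and 1499 lower and the median of all genes to -0.0293. A size of at least 1 on the log2 scale left 285 genes, 83 higher and 202 lower, and 149 called in the same direction treated and untreated. Leaving out 1 compared or untreated mutant library gave 1539 to 3695 calls, 722 to 1762 of them higher and 787 to 1933 lower, with the top values without untreated mutant replicate 3, which enters the treated comparison only through the shared spread, filter and scaling. Whether replicate numbers pair the samples was not tested. Correlations of deviations were 0.272, -0.026 and 0.305 between same-numbered treated libraries, and -0.34 to 0.153 between differently numbered ones. The fit with a replicate block called 2449 genes, of which 1190 were higher and 1259 lower, and gave DNMT3A 3.47. Genes at a few CPM rest on few counts per library, which limits the precision of their fold changes.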
